A study of Lactuca sativa with 12 samples.

Results

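The genes described here are the MYB and bHLH transcription factors of red oak-leaf lettuce (Lactuca sativa) that changed in leaves exposed to cadmium, selenium nanoparticles or both. They are the genes whose transcription factor family contains MYB or bHLH in any of the authors' 6 tables of pairwise comparisons, less 4 iron regulators. The rule gives 25 members of the 2264 genes in the tables, 14 of the MYB and 11 of the bHLH family. Of the 14 MYB members, 1 is classed as MYB-related, and all 25 carry a description or a protein domain that names their family. Every member matched a gene of the same span in the RefSeq annotation Lsat_Salinas_v11, and positions below are those spans.

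Poly(A) RNA of whole leaves was sequenced from 4 groups of 3 libraries, and all 12 libraries carry 1 batch label. Plants of the CdSeNP group received 10 mg/L of cadmium together with 3 mg/L of selenium nanoparticles. Plants of the SeNP group received the nanoparticles alone at 3 mg/L, plants of the Cd group cadmium alone at 10 mg/L, and plants of the CK group neither. All plants grew in nutrient solution, were seedlings when exposure began and were sampled at the stage of 6 leaves, and the labels give the cadmium dose both as the metal and as a hydrated chloride. The replicates are called biological in the series text, which does not say how many plants made a library.

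MYB proteins bind DNA through repeats of a helix-turn-helix fold, and bHLH proteins bind it as dimers held together by their helix-loop-helix domain. Both families are among the largest regulator families of plants. A MYB, a bHLH and a WD40 protein together form the complex that switches on anthocyanin synthesis and hair formation, and bHLH proteins of the MYC group carry the jasmonate response while JAZ (TIFY) proteins hold them back. Other members of both families control stomatal development, organ growth, the cell cycle, lignin and responses to wounding and drought.

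Each table lists only genes that the authors called, which needed a change of more than 1 on the log2 scale in either direction besides a DESeq2 adjusted p under 0.05, so a member absent from a table was not called there and its size in that comparison is unknown. Levels are in FPKM, which scales fragments by gene length and library total. Library totals recovered from the tables lay between 23.3 and 31.4 M reads. Of leaf markers, only called ones have values. The 22 mesophyll markers called in Cd over CK, all lower, summed to between 7303 and 8009 FPKM in Cd and between 16108 and 17389 FPKM in CK libraries. They were abundant in both groups, but genes taken because they changed do not check the tissue. CK 2 stood apart from the other CK libraries, with a chi-square per degree of freedom of 45.11 against CK 1 and 40.83 against CK 3 over the listed genes, where all other replicate pairs lay between 4.96 and 14.03. In whole leaves, fewer cells of a type and less RNA per cell cannot be told apart.

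Most MYB calls were lower in SeNP than in CK or Cd leaves and higher in CdSeNP than in SeNP leaves, as were most genes of the same tables. In SeNP over CK, 7 of the 8 MYB members called were lower, where 3.31% of all genes tested were called, 2.07% lower and 1.24% higher. In CdSeNP over SeNP, all 6 MYB members called were higher, where 3.87% of genes were called, 3.24% higher and 0.625% lower. In SeNP over Cd, 5 of the 6 MYB members called were lower, with 2.18% of genes called, 1.51% lower and 0.67% higher. These 3 comparisons share the SeNP libraries, and each share has the direction of its whole table, since 37.6% of all listed genes were higher in SeNP over CK, 83.8% in CdSeNP over SeNP and 30.7% in SeNP over Cd. The median log2 fold change of the MYB members called in the authors' deposited tables was -1.54, 1.63 and -1.22 in that order of comparisons, beside -1.09, 1.27 and -1.15 for all listed genes.

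Against CK, cadmium alone moved 2 MYB members up and 3 down, where 4.85% of all genes tested were called, 3.47% higher and 1.39% lower. The bHLH members called in Cd over CK were 4 higher and 2 lower. In CdSeNP over CK, 1 MYB member was higher and 2 were lower, and 1 bHLH member was higher and 3 were lower, where 2.57% of genes were called, 1.25% higher and 1.33% lower. In CdSeNP over Cd, 2 MYB members and 1 bHLH member were higher and 2 bHLH members were lower, where 1.87% of genes were called, 1.09% higher and 0.788% lower. The bHLH members called were 1 higher and 2 lower in SeNP over CK, 2 higher and 2 lower in CdSeNP over SeNP, and 1 higher and 3 lower in SeNP over Cd. Every member was called in some table by the rule itself, and the tables do not say how many family genes were tested, so these counts give no rate for the family. The libraries of the compared groups overlapped in 1 of the 54 calls of members, while 98.8% of all 4275 listed calls had no overlap. The overlapping call was that of bHLH18 (LOC111906393) in SeNP over CK.

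**Figure D1:**
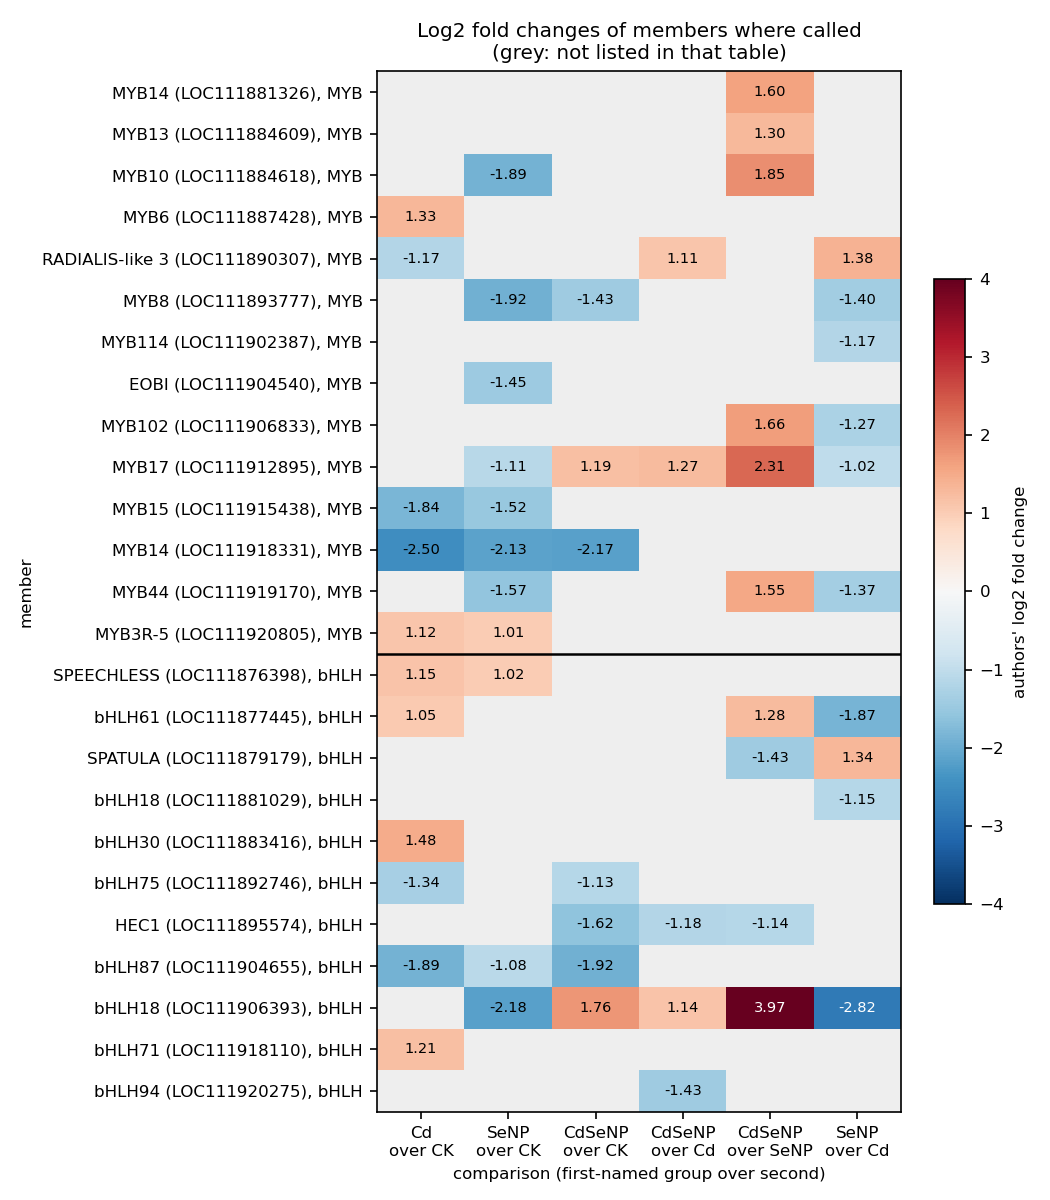
Log2 fold changes of the 25 members (rows) in the 6 comparisons (columns, first-named group over second), taken from the authors' deposited tables; red is higher, blue is lower and grey is not listed. The MYB rows hold 7 lower calls of 8 in SeNP over CK and 6 higher calls of 6 in CdSeNP over SeNP, and the strongest value is 3.97 for bHLH18 (LOC111906393) in CdSeNP over SeNP.

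Each call was set against 10 refits of the listed counts, namely edgeR, DESeq2, library totals in place of the authors' scaling, the replicate number as a block, and leaving out each of the 6 libraries. With p-values adjusted over the number of genes tested, 39 of the 54 calls ended in at least 1 refit, among them all 29 calls against CK and 10 of the 25 others. This adjustment is strict, because genes that the tables leave out enter it as unchanged. The 15 calls that ended in none were those of MYB14 (LOC111881326), MYB13, MYB10, MYB44, MYB102, MYB17, SPATULA, bHLH61 and bHLH18 (LOC111906393) in CdSeNP over SeNP, of MYB17 in CdSeNP over Cd, and of MYB102, RADIALIS-like 3, SPATULA, bHLH61 and bHLH18 (LOC111906393) in SeNP over Cd. A looser limit, chosen after the data were seen, is the highest unadjusted p that the authors called in the table, referred to here as the authors' p limit. At that limit 23 of the 54 calls ended in at least 1 refit, 16 of the 29 against CK and 7 of the 25 others. Refits in which a call ended are named below at the authors' p limit unless the strict adjustment is mentioned. Without CK 2 the MYB counts at the authors' p limit were 5 in Cd over CK, 8 in SeNP over CK and 2 in CdSeNP over CK, and the bHLH counts were 5, 3 and 4 in the same order. Scaling by library totals shifted all log2 fold changes alike, by about 0.118 in Cd over CK and -0.101 in SeNP over Cd, and no member changed direction in any refit.

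Among the MYB members named for pigment and flavonoid control, MYB8 (LOC111893777, chromosome 3, 18000057 to 18001244) had lower FPKM in both groups with nanoparticles than in either group without. Its closest Swiss-Prot entry is MYB111, an activator of flavonol synthesis in Arabidopsis. MYB8 had 1.07, 1.16 and 1.24 FPKM in CdSeNP, 0.422, 0.996 and 0.971 in SeNP, 1.97, 2.10 and 2.69 in Cd, and 3.26, 2.80 and 2.77 in CK. All 6 libraries with nanoparticles lay below all 6 without them. MYB8 was nevertheless not called in CdSeNP over Cd, the comparison that adds nanoparticles to cadmium. MYB8 changed by -1.92 in SeNP over CK (DESeq2 adjusted p = 1.1e-06), -1.43 in CdSeNP over CK (4.7e-06) and -1.4 in SeNP over Cd (0.00013) on the log2 scale in the authors' deposited tables, and none of the 10 refits ended these calls at the authors' p limit. With the strict adjustment they ended in 5, 6 and 7 of the 10 refits in the same order.

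MYB114 (LOC111902387, chromosome 3, 124033741 to 124034907), nearest in Swiss-Prot to MYB90, the anthocyanin activator PAP2 of Arabidopsis, was called in SeNP over Cd alone. It lay between 0.453 and 1.07 FPKM in SeNP and between 1.46 and 1.90 FPKM in Cd. MYB114 fell by 1.17 in SeNP over Cd on the log2 scale in the authors' deposited table (DESeq2 adjusted p = 0.011). The call ended without Cd 2, Cd 3, SeNP 2 or SeNP 3, at log2 changes of -1.23, -1.03, -0.96 and -0.96. Under the strict adjustment it ended in 9 of 10 refits.

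The flavonoid and anthocyanin enzymes in the tables did not move as a block. Of this list, 0 were higher and 5 lower in SeNP over CK, 3 higher and 2 lower in Cd over CK, and 1 higher and 3 lower in CdSeNP over CK. In CdSeNP over Cd 0 were higher and 2 lower, in CdSeNP over SeNP 3 were higher and 1 lower, and in SeNP over Cd 0 were higher and 2 lower. The flavonol synthase/flavanone 3-hydroxylase LOC111900153, which acts in the pathway that MYB111 activates in Arabidopsis, had 10.7 ± 0.819 FPKM in CdSeNP, 10.8 ± 1.01 in Cd and 4.87 ± 0.972 in CK (SD, n = 3 each). It was not called in SeNP over CK, so the size of its change there is unknown. The part of MYB8 in the changes of these enzymes was not tested. Dihydroflavonol 4-reductase, a step towards anthocyanins, had 49.9 ± 4.05 FPKM in CdSeNP and 97.2 ± 4.55 in SeNP (SD, n = 3 each). Of the WD40 partners of MYB and bHLH proteins, 0 were called in any of the 6 comparisons by the authors' DESeq2 rule, and unadjusted p-values of genes not listed were not analysed here.

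Several MYB members carry the names of defence and stress regulators. MYB14 (LOC111881326, chromosome 9, 11598633 to 11599985), related to the grapevine activator of stilbene synthesis, was among the most abundant MYB members. It lay between 19.5 and 23.3 FPKM in CdSeNP and between 6.34 and 7.46 in SeNP. MYB13 (LOC111884609, chromosome 3, 56790179 to 56791306), also nearest to MYB14 in Swiss-Prot, lay between 4.27 and 4.91 FPKM in CdSeNP and between 1.58 and 2.17 in SeNP. Both were called in this comparison alone, at log2 fold changes of 1.6 for MYB14 and 1.3 for MYB13 in the authors' deposited table (DESeq2 adjusted p = 1.2e-45 and 3.9e-08).

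MYB10 (LOC111884618, chromosome 3, 56930849 to 56932005) lies 139542 bp from MYB13 with 0 RefSeq genes between them. MYB10 had 1.04, 1.09 and 1.44 FPKM in CdSeNP, 0.242, 0.325 and 0.399 in SeNP, and 1.25, 0.800 and 1.43 in CK. SeNP libraries were lowest, with 24 reads in all 3 together, and did not meet the others. In the authors' deposited tables MYB10 changed by 1.85 in CdSeNP over SeNP and by -1.89 in SeNP over CK on the log2 scale (DESeq2 adjusted p = 0.00034 and 0.0031), and neither call ended at the authors' p limit. With the strict adjustment the call in SeNP over CK ended in 7 of 10 refits.

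MYB102 (LOC111906833, chromosome 7, 25673623 to 25675258), which responds to wounding and osmotic stress in Arabidopsis, had 3.54, 3.16 and 2.98 FPKM in CdSeNP, 1.08, 0.890 and 1.00 in SeNP, and 2.40, 3.11 and 2.17 in Cd. Its SeNP libraries all lay below the libraries with cadmium, while the CdSeNP and Cd ranges overlapped. MYB102 changed by 1.66 in CdSeNP over SeNP and by -1.27 in SeNP over Cd on the log2 scale in the authors' deposited tables (DESeq2 adjusted p = 4.4e-12 and 3.3e-06), and no refit ended either call under either limit.

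MYB44 (LOC111919170, chromosome 4, 241106525 to 241107590), a regulator of abscisic acid responses and stomatal closure in Arabidopsis, had 1.92, 1.97 and 1.80 FPKM in CdSeNP, 0.841, 0.229 and 0.845 in SeNP, 1.94, 1.47 and 1.82 in Cd, and 2.38, 1.07 and 2.04 in CK. Every SeNP library was below every library of the other groups, with SeNP 2 far under its replicates and CK 2 the lowest of the rest. The authors' deposited tables give log2 fold changes for MYB44 of 1.55 in CdSeNP over SeNP, -1.37 in SeNP over Cd and -1.57 in SeNP over CK (DESeq2 adjusted p = 0.00011, 0.0017 and 0.015). For SeNP over CK the call ended under library totals and without CK 1, CK 3 or any SeNP library, at values between -1.84 and -1.15. For SeNP over Cd it ended without Cd 3 (-1.35) or SeNP 2 (-0.95). Under the strict adjustment the SeNP over CK call ended in 8 of 10 refits and the SeNP over Cd call in all 10.

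MYB15 (LOC111915438, chromosome 3, 102090279 to 102091487), which controls cold responses and defence lignin in Arabidopsis, had 0.939, 0.365 and 0.449 FPKM in SeNP, 0.447, 0.568 and 0.470 in Cd, and 1.54, 1.43 and 1.92 in CK. CK stood above both treatments in every library. MYB15 changed by -1.52 in SeNP over CK and by -1.84 in Cd over CK on the log2 scale in the authors' deposited tables (DESeq2 adjusted p = 0.0071 and 2.9e-05). The SeNP call ended without SeNP 2 (-1.25) or SeNP 3 (-1.36). Of 10 refits with the strict adjustment, 8 ended the SeNP call and 4 the Cd call.

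A second MYB14 gene (LOC111918331, chromosome 8, 142436969 to 142438515) had the deepest fall of the family against CK. It had 0.314, 0.263 and 0.164 FPKM in CdSeNP, 0.335, 0.218 and 0.168 in SeNP, 0.257, 0.174 and 0.162 in Cd, and 1.09, 0.893 and 1.11 in CK. The 3 treated groups lay at 1 low level, with 23 or 24 reads a group, and CK at a higher one with 107 reads. Log2 fold changes of this MYB14 gene in the authors' deposited tables were -2.17 in CdSeNP over CK, -2.13 in SeNP over CK and -2.5 in Cd over CK (DESeq2 adjusted p = 7.8e-05, 0.0002 and 1.6e-06), and no refit ended any of them at the authors' p limit. With the strict adjustment the calls of LOC111918331 ended in 6, 6 and 2 of 10 refits in that order. Reads shared between related genes of these families could blur the split between single members, and how the authors' counting handled them is not given in the sources used here.

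**Figure D2:**
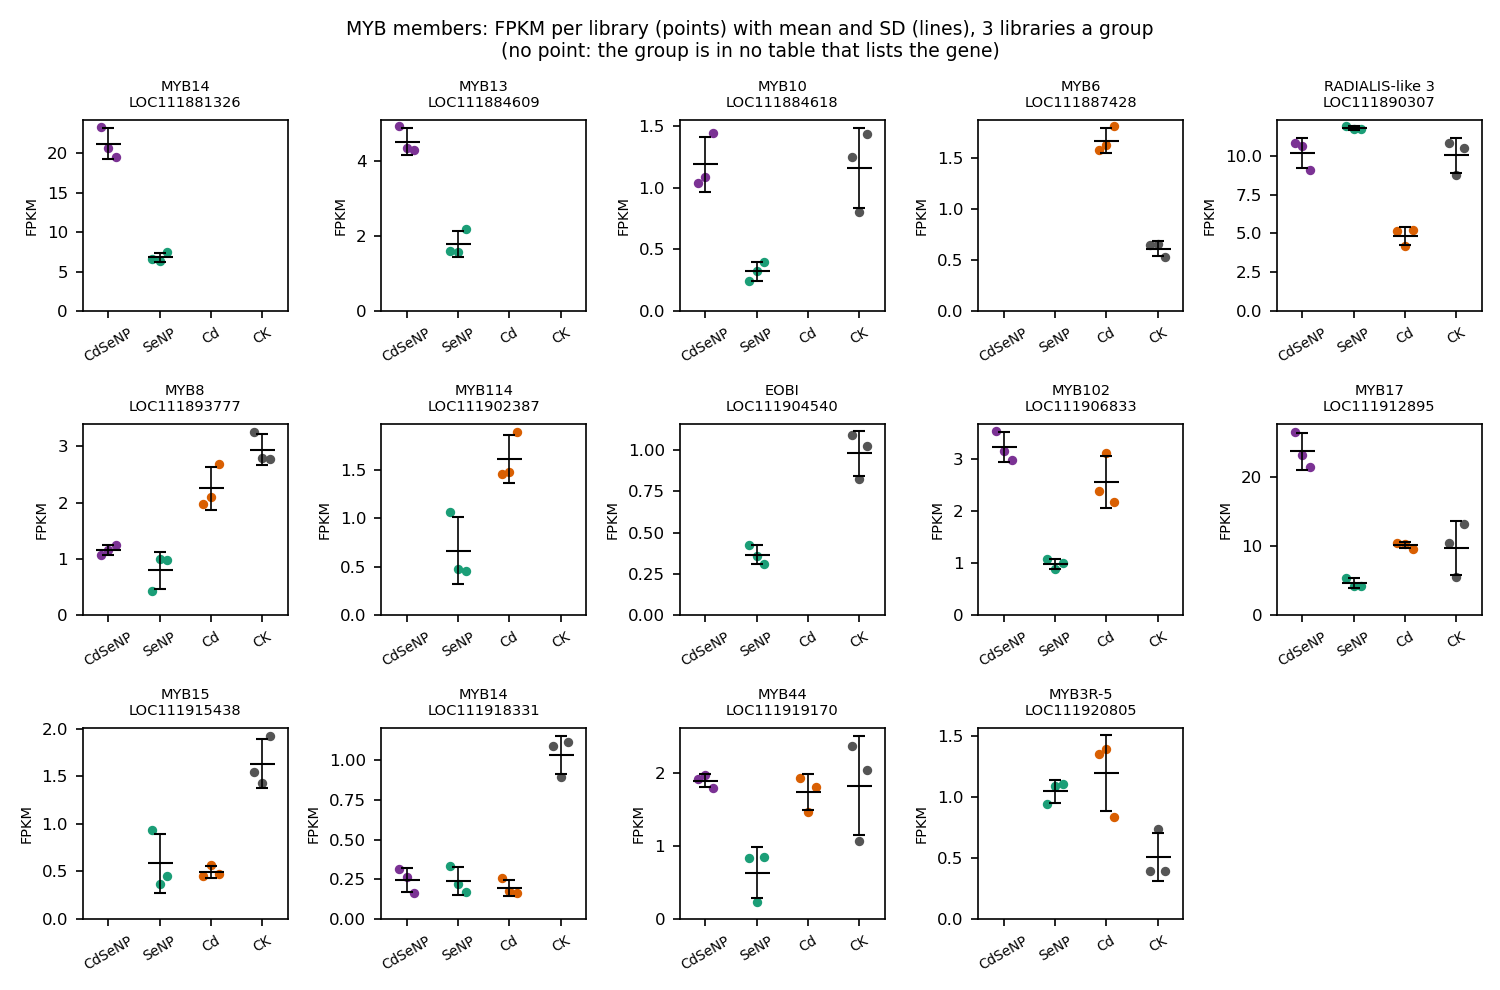
FPKM of the 14 MYB members, 1 panel a gene; points are libraries, lines the mean and SD of 3 libraries, and groups without points are in no table that lists the gene. MYB17 reached 21.4 to 26.5 FPKM in CdSeNP, above all other groups, and MYB14 (LOC111918331) was above 0.8 FPKM in CK alone.

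Of the MYB members with developmental names, MYB17 was the one called most often. MYB17 (LOC111912895, chromosome 7, 6113443 to 6118484) is known in Arabidopsis as LATE MERISTEM IDENTITY 2, which promotes floral meristem identity. It had 26.5, 23.1 and 21.4 FPKM in CdSeNP, 5.42, 4.19 and 4.26 in SeNP, 10.4, 10.3 and 9.58 in Cd, and 10.4, 5.50 and 13.2 in CK. CdSeNP was the highest group and SeNP the lowest, Cd lay between them, and CK spread widely, with CK 2 close to the SeNP level. The authors' deposited tables give log2 fold changes for MYB17 of 2.31 in CdSeNP over SeNP, 1.27 in CdSeNP over Cd and -1.02 in SeNP over Cd (DESeq2 adjusted p = 1.6e-78, 5.3e-36 and 4.2e-13). Against CK its changes in the authors' deposited tables were 1.19 in CdSeNP and -1.11 in SeNP (DESeq2 adjusted p = 0.00011 and 0.0018).

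The MYB17 calls against CK were the less firm ones. In CdSeNP over CK the call ended without CK 1 (1.25), CK 2 (0.89), CdSeNP 1 (1.1), CdSeNP 2 (1.21) or CdSeNP 3 (1.25). In SeNP over CK it ended in edgeR (-1.11, unadjusted p = 0.0084), under library totals (-1.07), and without CK 1 (-1.05), CK 3 (-0.81), SeNP 1 (-1.24), SeNP 2 (-1.04) or SeNP 3 (-1.05). In SeNP over Cd, without Cd 1 (-1), SeNP 2 (-0.96) or SeNP 3 (-0.96), the change missed the fold limit. Of 10 refits with the strict adjustment, 9 ended each MYB17 call against CK and 3 the SeNP over Cd call.

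RADIALIS-like 3 (LOC111890307, chromosome 4, 225892555 to 225894213) belongs to the small MYB-related proteins named for RADIALIS, which shapes floral asymmetry in snapdragon. It had 10.8, 10.6 and 9.08 FPKM in CdSeNP, 11.9, 11.7 and 11.7 in SeNP, 5.19, 4.19 and 5.21 in Cd, and 10.8, 8.76 and 10.5 in CK. Cadmium alone gave the low level, and the other 3 groups lay close together. Its log2 fold changes in the authors' deposited tables were 1.11 in CdSeNP over Cd, 1.38 in SeNP over Cd and -1.17 in Cd over CK (DESeq2 adjusted p = 2e-10, 6.9e-18 and 3.3e-08), and at the authors' p limit only the last ended, without Cd 2 (-1.07). With the strict adjustment the first ended in 1 refit, the replicate block, and the last in 7.

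Other MYB members were called in 1 comparison with CK alone. MYB6 (LOC111887428, chromosome 5, 32996296 to 32998162), which RefSeq names a transcription repressor, had 1.58, 1.63 and 1.81 FPKM in Cd and 0.652, 0.654 and 0.526 in CK, with no overlap. MYB6 rose by 1.33 in Cd over CK on the log2 scale in the authors' deposited table (DESeq2 adjusted p = 0.00017), and no refit ended the call at the authors' p limit, but 5 of 10 did with the strict adjustment. EOBI (LOC111904540, chromosome 3, 80162194 to 80164086), named for a petunia regulator of floral scent, lay between 0.312 and 0.425 FPKM in SeNP and between 0.827 and 1.09 in CK. EOBI fell by 1.45 in SeNP over CK on the log2 scale in the authors' deposited table (DESeq2 adjusted p = 0.0022), a call that ended in none of the 10 refits at the authors' p limit and in 7 with the strict adjustment.

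MYB3R-5 (LOC111920805, chromosome 3, 9387966 to 9391458) is of a MYB group that controls genes of mitosis in Arabidopsis. Whether this gene raises or lowers such genes in lettuce was not tested. It had 0.942, 1.09 and 1.11 FPKM in SeNP, 1.36, 1.40 and 0.835 in Cd, and 0.398, 0.738 and 0.391 in CK. CK 2 was the highest CK library and came close to Cd 3. In the authors' deposited tables MYB3R-5 rose by 1.01 in SeNP over CK and by 1.12 in Cd over CK on the log2 scale (DESeq2 adjusted p = 0.015 and 0.0082). In SeNP over CK the call ended in DESeq2, under library totals and without CK 1, CK 3 or any SeNP library, at values between 0.87 and 1.08. In Cd over CK it ended without CK 1 (0.97), CK 3 (0.97), Cd 1 (1.01) or Cd 2 (1). Without CK 2 the changes of MYB3R-5 were 1.35 in SeNP over CK and 1.46 in Cd over CK. Its calls ended in 9 and 8 of 10 refits with the strict adjustment, in that order.

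Markers of dividing cells moved in the same comparisons. Of these genes 71 were called higher and 0 lower in SeNP over CK, and in Cd over CK 104 were higher and 0 lower. Over all genes tested, 1.24% were called higher in SeNP over CK and 3.47% in Cd over CK. Their summed level was 2814, 3001 and 2853 FPKM in SeNP, beside 778.6, 1887 and 708.8 in CK for the 71 genes. For the 104 genes it was 3940, 5351 and 3968 FPKM in Cd, beside 965.1, 2508 and 905.6 in CK. Each sum takes genes called in that comparison, so its gap between treated and CK libraries follows from that choice. CK 2 again stood between the treated libraries and the other CK libraries. In CdSeNP over CK 18 were higher and 1 lower, and in the 3 comparisons among treated groups the calls were 0 higher and 1 lower, 1 and 1, and 0 and 2 for CdSeNP over Cd, CdSeNP over SeNP and SeNP over Cd. Some word matches are not division markers. The lower gene in CdSeNP over CK was the demethylase REF6. Those in CdSeNP over SeNP were REF6, lower, and the cyclin-dependent kinase inhibitor SMR6, higher. A mediator subunit was among the matches in Cd over CK. The part of cell division in the changes of MYB3R-5 and of the bHLH members below was not tested.

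Among the bHLH members, SPEECHLESS and bHLH71 are named for proteins with roles in stomatal development, and bHLH61 for a relative of such proteins. They are among the 4 bHLH members called higher in Cd over CK and were not called in CdSeNP over CK. In Cd over CK 3.47% of all genes tested were called higher, and 71.4% of the listed genes were higher, so the shared direction is that of the whole table. SPEECHLESS (LOC111876398, chromosome 8, 8062555 to 8065887) starts the stomatal lineage in the Arabidopsis epidermis. It had 2.89, 3.71 and 2.97 FPKM in SeNP, 3.48, 4.44 and 3.18 in Cd, and 1.00, 2.58 and 1.07 in CK. All 6 treated libraries lay above the CK libraries, and CK 2 lay near the treated ones. SPEECHLESS rose by 1.02 in SeNP over CK and by 1.15 in Cd over CK on the log2 scale in the authors' deposited tables (DESeq2 adjusted p = 0.018 and 0.0052).

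The SPEECHLESS call in SeNP over CK ended in 8 of 10 refits, edgeR (unadjusted p = 0.019) and DESeq2 among them, and without CK 1 (0.79), CK 3 (0.83), SeNP 1 (1.09), SeNP 2 (0.9) or SeNP 3 (1.08). In Cd over CK it ended in 7 of 10, edgeR (unadjusted p = 0.015) among them, and without CK 1 (0.92), CK 3 (0.95), Cd 1 (1.18), Cd 2 (1) or Cd 3 (1.24). Without CK 2 the changes of SPEECHLESS were 1.58 in SeNP over CK and 1.7 in Cd over CK, and both calls held under both limits. They ended in 9 and 8 of 10 refits with the strict adjustment, in the same order.

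bHLH71 and bHLH61 are named for relatives of Arabidopsis proteins that bind FAMA, the factor that completes guard cell fate. bHLH71 (LOC111918110, chromosome 6, 142248229 to 142249790) had 2.40, 3.29 and 4.09 FPKM in Cd and 0.905, 1.87 and 1.13 in CK, with CK 2 the nearest to the Cd libraries. bHLH71 rose by 1.21 in Cd over CK on the log2 scale in the authors' deposited table (DESeq2 adjusted p = 0.0014). The call ended without CK 1 (1.01), CK 3 (1.13), Cd 2 (1.21) or Cd 3 (1.01). Under the strict adjustment it ended in 7 of 10 refits.

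bHLH61 (LOC111877445, chromosome 6, 188504090 to 188507977), whose closest Swiss-Prot entry is bHLH93, had 2.84, 3.33 and 3.27 FPKM in CdSeNP, 0.862, 1.69 and 1.19 in SeNP, 3.73, 5.16 and 5.92 in Cd, and 2.39, 1.60 and 2.57 in CK. Cadmium leaves were highest, and each group with cadmium exceeded the matching group without it. The authors' deposited tables give log2 fold changes for bHLH61 of 1.28 in CdSeNP over SeNP, -1.87 in SeNP over Cd and 1.05 in Cd over CK (DESeq2 adjusted p = 2.4e-07, 3e-15 and 0.00044). The Cd over CK call of bHLH61 ended without CK 1 (1.12), CK 2 (0.86), Cd 2 (1.02) or Cd 3 (0.9), and the other calls held in all 10 refits under both limits. With the strict adjustment the Cd over CK call of bHLH61 ended in all 10 refits. Of 11 members called in Cd over CK and 10 called in CdSeNP over SeNP, comparisons that share no library, bHLH61 alone was in both, which is 9.1% and 10%. The same share over all listed genes was not computed, so this overlap says nothing particular about the 2 families.

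The words searched for the stomatal lineage found only peptides of the EPIDERMAL PATTERNING FACTOR-like family besides the members, 3 higher and 0 lower in Cd over CK. Their counts were 1 higher and 0 lower in SeNP over CK, 1 and 0 in CdSeNP over CK, 0 and 1 in CdSeNP over Cd, 1 and 0 in CdSeNP over SeNP, and 0 and 1 in SeNP over Cd. They are of types 1 and 2, and in Arabidopsis type 2 acts in the growth of leaf margins. The EPIDERMAL PATTERNING FACTOR-like protein 2 gene LOC111909553 had 9.46 ± 0.925 FPKM in SeNP, 11.2 ± 2.23 in Cd and 4.63 ± 2.74 in CK (SD, n = 3 each). EPIDERMAL PATTERNING FACTOR-like protein 1 (LOC111910137) had 16.1 ± 0.365 FPKM in CdSeNP and 18.7 ± 0.953 in Cd (SD, n = 3 each), and it is listed at 0 in every SeNP and CK library. Guard cell and stomatal lineage markers, which add the anion channel SLAH2 to this list, were called 2 times higher and 0 times lower in CdSeNP over SeNP and as above elsewhere.

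**Figure D3:**
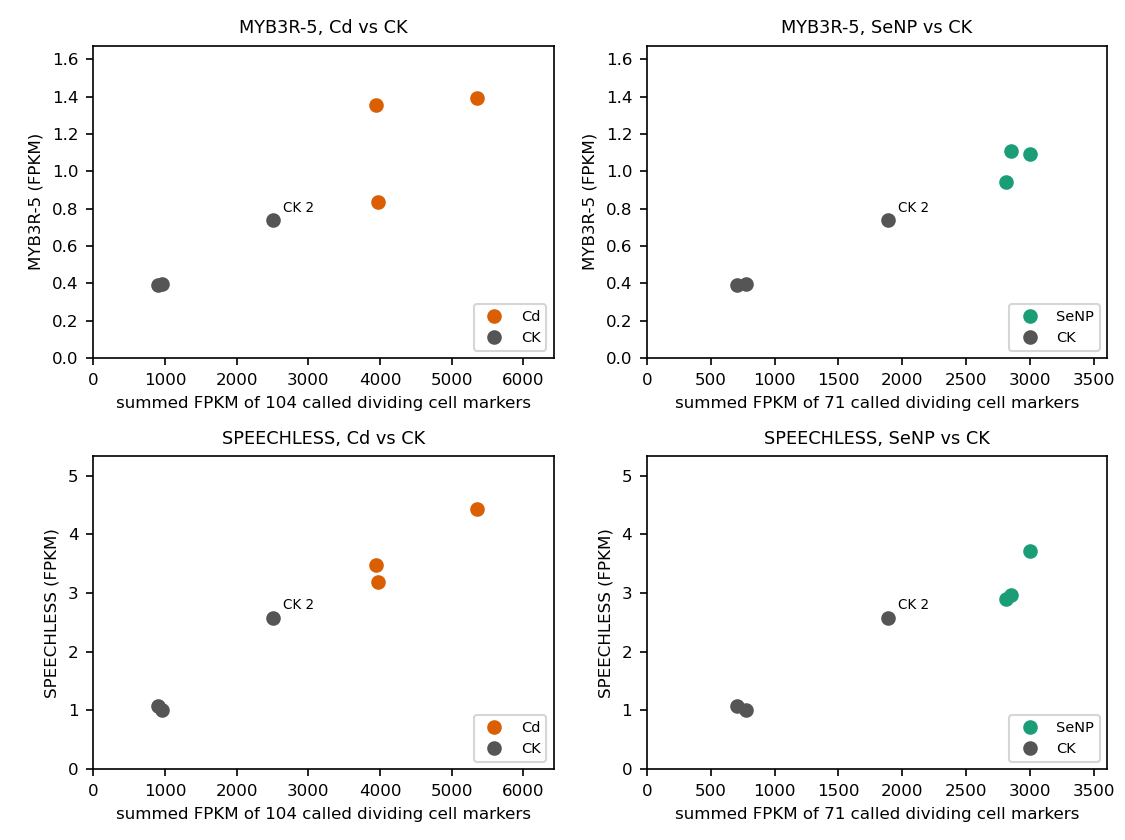
FPKM of MYB3R-5 (upper row) and SPEECHLESS (lower row) against the summed FPKM of the called dividing cell markers, 1 point a library, for Cd and CK (left) and SeNP and CK (right). CK 2, the labelled point, lies between the treated libraries and the other 2 CK libraries in all 4 panels. Markers and members were both taken because they were called, so the gap between groups on either axis follows from that choice.

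bHLH30 (LOC111883416, chromosome 2, 157808165 to 157809448) had 0.925, 1.39 and 1.68 FPKM in Cd and 0.314, 0.723 and 0.288 in CK, again with CK 2 nearest to Cd. bHLH30 rose by 1.48 in Cd over CK on the log2 scale in the authors' deposited table (DESeq2 adjusted p = 0.0087). The call ended without CK 1 (1.28), CK 3 (1.25), Cd 2 (1.44) or Cd 3 (1.27). Under the strict adjustment it ended in 8 of 10 refits.

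bHLH members known from carpel growth and hormone responses fell or differed between the nanoparticle groups. SPATULA (LOC111879179, chromosome 4, 362157699 to 362159168), which shapes carpels and restrains leaf growth in Arabidopsis, had 8.31, 8.62 and 8.83 FPKM in CdSeNP, 23.7, 22.4 and 21.1 in SeNP, and 8.45, 9.84 and 10.3 in Cd. SeNP stood far above both groups with cadmium, which overlapped each other, and SPATULA was not called in any comparison with CK. SPATULA changed by -1.43 in CdSeNP over SeNP and by 1.34 in SeNP over Cd on the log2 scale in the authors' deposited tables (DESeq2 adjusted p = 2.4e-45 and 3.4e-39), and no refit ended either call under either limit.

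HEC1 (LOC111895574, chromosome 4, 247755003 to 247756372) is a partner of SPATULA in the carpels of Arabidopsis. It had 0.411, 0.491 and 0.766 FPKM in CdSeNP, 1.28, 1.12 and 1.19 in SeNP, 1.46, 1.51 and 0.933 in Cd, and 1.50, 1.80 and 1.56 in CK. The combined treatment was lowest, with CdSeNP 3 the nearest to the other groups. HEC1 changed by -1.14 in CdSeNP over SeNP, -1.18 in CdSeNP over Cd and -1.62 in CdSeNP over CK on the log2 scale in the authors' deposited tables (DESeq2 adjusted p = 0.004, 0.0035 and 5e-05). The CdSeNP over SeNP call ended without CdSeNP 1 (-0.94). The CdSeNP over Cd call ended without Cd 2 (-1.05), CdSeNP 1 (-0.99), CdSeNP 2 (-1.08) or with the replicate block (-1.16, edgeR unadjusted p = 0.019). The call against CK held at the authors' p limit and ended in 7 of 10 refits with the strict adjustment. That adjustment ended the CdSeNP over Cd call in all 10 refits and the CdSeNP over SeNP call in 1.

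bHLH87 (LOC111904655, chromosome 4, 171344111 to 171345722) had the highest group mean of the bHLH members, in CK, close to that of bHLH75. It had 8.09, 8.46 and 8.16 FPKM in CdSeNP, 15.9, 13.5 and 13.3 in SeNP, 8.53, 8.48 and 8.83 in Cd, and 33.1, 22.5 and 32.4 in CK. CK was highest with CK 2 its lowest library, SeNP was intermediate, and the groups with cadmium were lowest. In the authors' deposited tables bHLH87 changed by -1.92 in CdSeNP over CK, -1.08 in SeNP over CK and -1.89 in Cd over CK on the log2 scale (DESeq2 adjusted p = 1.2e-27, 2.2e-08 and 3.3e-27). The SeNP call ended without CK 1 (-0.98), CK 3 (-0.99), SeNP 2 (-1.04) or SeNP 3 (-1.03), and the others held at the authors' p limit. The calls of bHLH87 ended in 1, 7 and 4 of 10 refits with the strict adjustment, in the order given.

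bHLH75 (LOC111892746, chromosome 8, 42499943 to 42502237), nearest in Swiss-Prot to BEE 3, an early brassinosteroid response gene of Arabidopsis, had 14.3, 13.6 and 14.6 FPKM in CdSeNP, 12.8, 11.6 and 13.2 in Cd, and 35.8, 20.0 and 31.4 in CK. Both groups with cadmium lay below CK, of which CK 2 was the lowest. bHLH75 changed by -1.13 in CdSeNP over CK and by -1.34 in Cd over CK on the log2 scale in the authors' deposited tables (DESeq2 adjusted p = 1.1e-06 and 6.7e-09). The CdSeNP call ended without CK 1 (-0.94), CK 3 (-1.06), CdSeNP 1 (-1.14) or CdSeNP 2 (-1.09). The Cd call held at the authors' p limit. Of 10 refits with the strict adjustment, 8 ended the CdSeNP call and 7 the Cd call.

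Mesophyll markers fell in the same comparisons as bHLH75. In Cd over CK 22 of them were called, all lower, with sums between 7303 and 8009 FPKM in Cd and between 16108 and 17389 in CK. The sums take called genes only, so their gap follows from that choice. In CdSeNP over CK 21 were lower and 0 higher, in CdSeNP over SeNP 21 lower and 0 higher, and in SeNP over Cd 22 higher and 0 lower. None was called in SeNP over CK or CdSeNP over Cd by the authors' DESeq2 rule. Their part in the falls of bHLH75, bHLH87 and SPATULA in leaves with cadmium was not tested.

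The bHLH18 gene LOC111906393 (chromosome 4, 343314477 to 343316559) showed the widest swing of all 25 members. Its closest Swiss-Prot entry is bHLH25, of a group that links jasmonate to the turnover of the iron regulator FIT in Arabidopsis. It had 2.26, 2.17 and 1.36 FPKM in CdSeNP, 0.0895, 0.0801 and 0.197 in SeNP, 0.906, 0.732 and 1.07 in Cd, and 0.760, 0.191 and 0.646 in CK. CdSeNP was highest, then Cd, and SeNP was lowest with 16 reads in its 3 libraries together. CK 2 fell within the SeNP range. The authors' deposited tables give log2 fold changes for this bHLH18 gene of 3.97 in CdSeNP over SeNP, 1.14 in CdSeNP over Cd and -2.82 in SeNP over Cd (DESeq2 adjusted p = 3.3e-18, 6.1e-05 and 1.1e-07), and no refit ended these at the authors' p limit. The CdSeNP over Cd call ended in 8 of 10 refits with the strict adjustment.

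Against CK the same gene changed by 1.76 in CdSeNP and by -2.18 in SeNP on the log2 scale in the authors' deposited tables (DESeq2 adjusted p = 0.00061 and 0.015). The CdSeNP call of LOC111906393 ended without CK 3 (1.93), CdSeNP 1 (1.63), CdSeNP 2 (1.67) or CdSeNP 3 (1.95), and with the replicate block (1.82, edgeR unadjusted p = 0.0075). The SeNP call ended without CK 1 (-1.82), SeNP 1 (-2) or SeNP 2 (-1.93), and without CK 2 the changes were 1.34 and -2.59. Of 10 refits with the strict adjustment, 8 ended the CdSeNP call and 7 the SeNP call. This bHLH18 gene and MYB17 were the members called both in SeNP over CK and in CdSeNP over Cd, comparisons that share no library. They are 18.2% of the 11 members of the first and 40% of the 5 of the second, and both were lower in the first and higher in the second. Here too the share over all listed genes was not computed, so nothing particular to the families can be read from it.

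The remaining bHLH members were weakly expressed. The other bHLH18 gene (LOC111881029, chromosome 9, 210013858 to 210016887) lay between 0.159 and 0.299 FPKM in SeNP and between 0.422 and 0.649 in Cd. It fell by 1.15 in SeNP over Cd on the log2 scale in the authors' deposited table (DESeq2 adjusted p = 0.046). The call ended in DESeq2 (unadjusted p = 0.014) and without Cd 1 (-1.02), Cd 2 (-1.1), SeNP 1 (-0.94) or SeNP 2 (-1.2). Under the strict adjustment it ended in all 10 refits. bHLH94 (LOC111920275, chromosome 9, 113196372 to 113199765) lay between 0.149 and 0.334 FPKM in CdSeNP and between 0.366 and 0.842 in Cd. It fell by 1.43 in CdSeNP over Cd on the log2 scale in the authors' deposited table (DESeq2 adjusted p = 0.0058). The call ended without Cd 2 (-1.24), Cd 3 (-1.24) or CdSeNP 1 (-1.16), and in 9 of 10 refits with the strict adjustment.

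**Figure D4:**
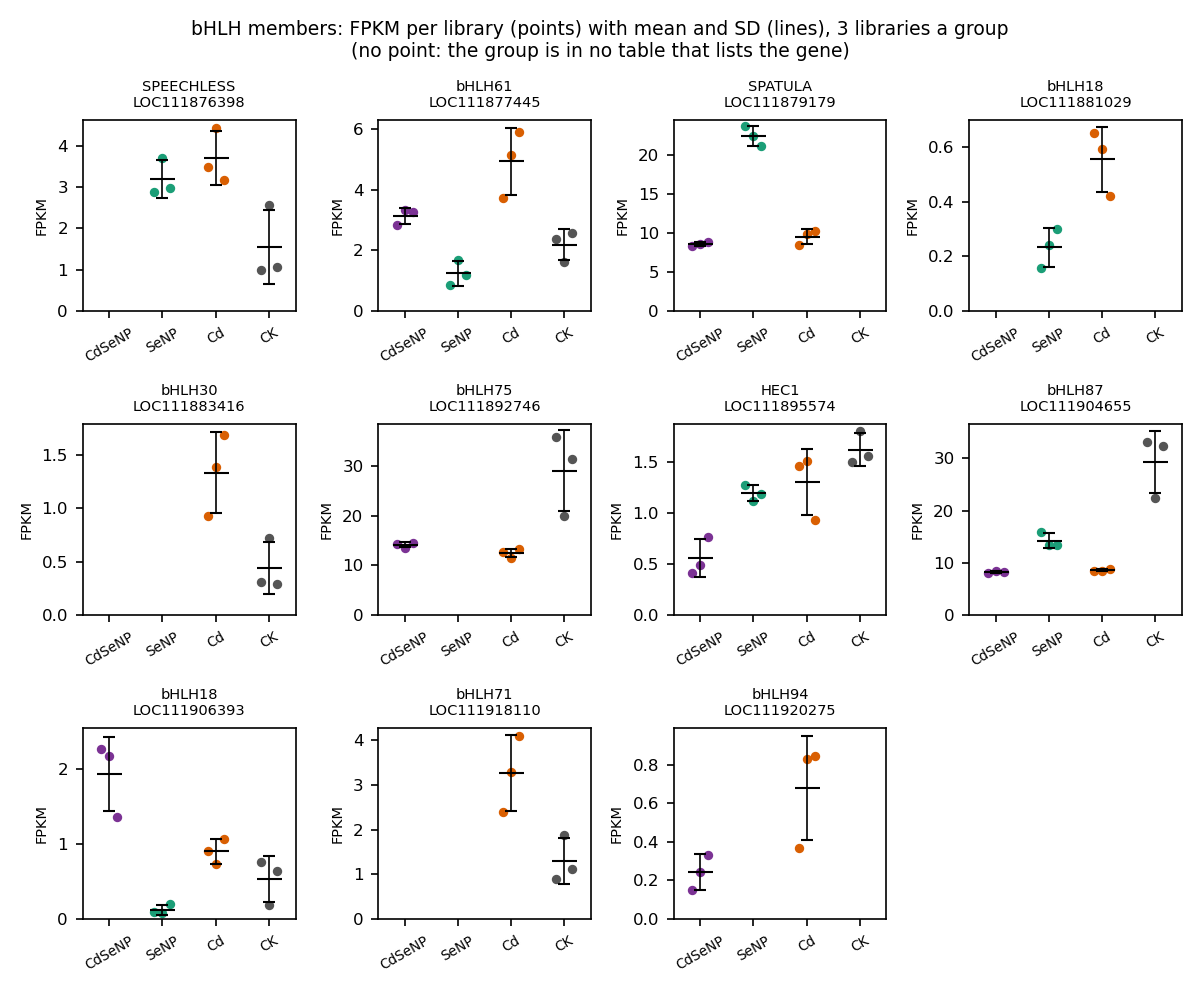
FPKM of the 11 bHLH members, 1 panel a gene; points are libraries, lines the mean and SD of 3 libraries, and groups without points are in no table that lists the gene. SPATULA lay at 21.1 to 23.7 FPKM in SeNP and at most at 10.3 in both groups with cadmium, and bHLH87 was highest in CK at 22.5 to 33.1 FPKM.

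Jasmonate repressors and partners of MYC proteins were called mostly in the comparisons with the SeNP group, in the main direction of each whole table. Of all listed genes 83.8% were higher in CdSeNP over SeNP, 37.6% in SeNP over CK and 30.7% in SeNP over Cd. In CdSeNP over SeNP 6 of them were higher and 0 lower, beside the 3.24% of all genes called higher. In SeNP over CK 0 were higher and 4 lower, and in SeNP over Cd 0 were higher and 4 lower. Their counts were 0 and 1 in CdSeNP over CK, 1 and 0 in CdSeNP over Cd, and 0 and 0 in Cd over CK by the authors' DESeq2 rule. The 6 genes summed to 465.4, 456.2 and 413.5 FPKM in CdSeNP and to 151.9, 133.2 and 167.1 FPKM in SeNP. They were taken because they were called here, so the gap between the sums follows from that choice. Of all genes listed in this comparison, 99.8% had no overlap. The largest change among them was that of the TIFY 10A gene LOC111910354, with 19.9 ± 2.22 FPKM in CdSeNP and 2.91 ± 0.388 in SeNP (SD, n = 3 each). The part of jasmonate signalling in the MYB changes was not tested.

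Clock and light signalling genes, regulated in part by MYB and bHLH proteins in Arabidopsis, were also counted, and the tables do not give how many were tested. Clock genes were 1 higher and 2 lower in CdSeNP over CK, 0 and 1 in SeNP over CK and 0 and 2 in Cd over CK, with 0 called elsewhere by the authors' DESeq2 rule. The clock gene APRR1 (LOC111912182), a component of the evening loop also known as TOC1, had 12.7 ± 0.466 FPKM in CdSeNP and 5.7 ± 0.277 in CK (SD, n = 3 each). Genes matched as phytochrome signalling were 1 higher and 1 lower in CdSeNP over CK, 0 and 1 in Cd over CK, 1 and 0 in CdSeNP over Cd, 1 and 0 in CdSeNP over SeNP, and 0 and 0 in SeNP over CK and SeNP over Cd.

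Secondary wall genes, targets of other MYB proteins, were 1 higher and 0 lower in CdSeNP over CK, 4 and 1 in SeNP over CK, 2 and 1 in Cd over CK, 1 and 1 in CdSeNP over Cd, 4 and 7 in CdSeNP over SeNP, and 3 and 0 in SeNP over Cd. The xylem markers called, mostly laccases of the same list, were 0 and 0, 3 and 1, 1 and 1, 0 and 1, 1 and 6, and 2 and 0 in the same order. Cuticle wax genes, which also served as epidermis markers, were 0 higher and 3 lower, 1 and 0, 7 and 5, 0 and 4, 0 and 1, and 1 and 3 in that order. Root markers were called in CdSeNP over CK (0 higher, 1 lower) and CdSeNP over Cd (1 higher, 1 lower) and nowhere else by the authors' DESeq2 rule.

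An interaction term asked whether cadmium acted differently in the presence of nanoparticles. It is the log2 change of CdSeNP over SeNP less that of Cd over CK, taken from edgeR's quasi-likelihood test over the 575 genes that have values in all 12 libraries. Of the 9 members among them, 7 passed at an adjusted p under 0.05, all with a positive value, and 73.7% of the 575 genes did, 45.2% with a positive and 28.5% with a negative value. The 575 genes were selected by being called, so the share of members adds nothing beyond that background. The median interaction was 1.06 for the 9 members and 0.51 for all 575 genes. It was 3.31 for bHLH18 (LOC111906393; edgeR adjusted p = 0.00063), 2.45 for MYB14 (LOC111918331; 0.00096) and 2.38 for MYB17 (0.00015).

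The ratios of mean FPKM show how these values arose. For bHLH18 (LOC111906393) the log2 ratio was 3.98 in CdSeNP over SeNP and 0.76 in Cd over CK, and for MYB17 2.36 and 0.05. For MYB14 (LOC111918331) it was 0.04 and -2.39, as both nanoparticle groups and Cd lay at the low level. MYB44 had 1.57 and -0.07, with an interaction of 1.75 (edgeR adjusted p = 0.0084), and bHLH87 had -0.79 and -1.77, with an interaction of 1.06 (edgeR adjusted p = 0.0015). RADIALIS-like 3 had -0.21 and -1.05, with 0.91 (edgeR adjusted p = 0.0039).

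MYB8 had ratios of 0.54 in CdSeNP over SeNP and -0.38 in Cd over CK, with an interaction of 0.99 (edgeR adjusted p = 0.027) that missed the limit without CK 1, Cd 1, Cd 2 or CdSeNP 3, at 0.91, 0.91, 0.95 and 0.94. HEC1 missed the limit with an interaction of -0.71 (edgeR adjusted p = 0.089) and passed without Cd 3 (-0.9) or CdSeNP 3 (-1.01). bHLH61, with ratios of 1.33 and 1.17, had an interaction of 0.23 (edgeR adjusted p = 0.61). Without CK 2, 7 members passed.

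**Figure D5:**
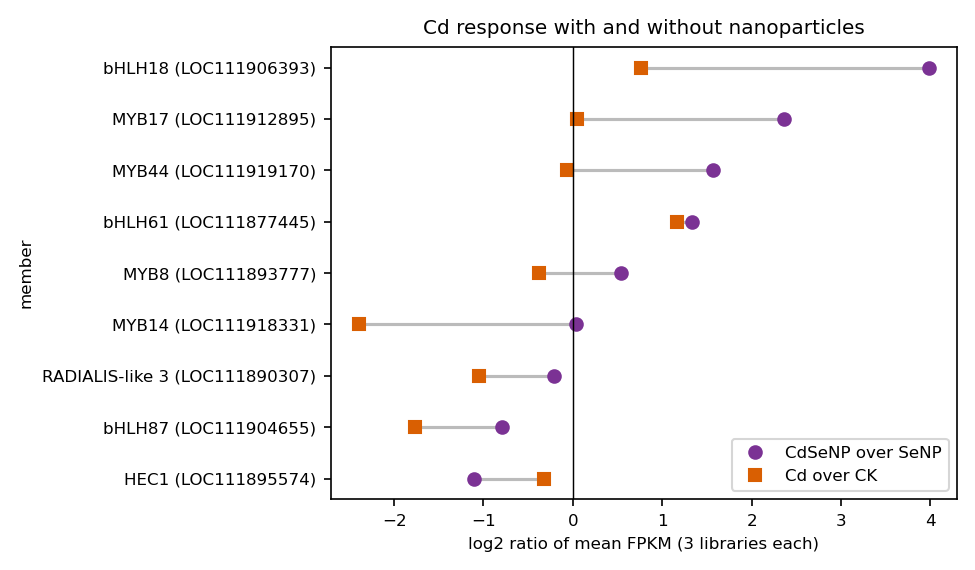
Log2 ratios of mean FPKM for CdSeNP over SeNP (circles) and Cd over CK (squares) in the 9 members with values in all 12 libraries, 3 libraries a group; the grey line joins both ratios of a gene. bHLH18 (LOC111906393) lies at 3.98 and 0.76, and bHLH61 at 1.33 and 1.17.

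In the group where each was highest, MYB members averaged between 0.981 and 23.7 FPKM, with a median of 1.79, and bHLH members between 0.555 and 29.3 FPKM, with a median of 3.26, beside a median of 4.32 over all 2264 genes. Of the MYB members 5 were called in 1 table, 4 in 2, 4 in 3 and 1 in 5, and of the bHLH members 4, 3, 3 and 1.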

How the data were processed

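Poly(A) RNA of 12 leaf libraries, 3 in each of 4 groups, was sequenced on an Illumina platform, per the labels' protocols. Per the submitters' processing notes, the tools were DESeq2 1.34.0, StringTie 2.2.1, HISAT2 2.2.1, Trimmomatic and fastp 0.23.0. Not given in the sources used here were the genome build, its annotation, the strand setting and the read counter. Per the file headers, each deposited table holds raw counts and FPKM per gene and library. The log2 fold changes and p-values, raw and adjusted, stand in the same deposited tables.

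The deposited tables list called genes only, so no fit across all genes was made and the calls are the authors'. The genes tested, 22656 to 23096 a comparison, follow from how far each adjusted p exceeds its raw p at a known rank. Library totals came from counts, FPKM and gene spans of genes with at least 200 counts, within a tolerance of 0.2%. Size factors came from counts and the authors' fold changes. Refits used edgeR 4.0.16 and DESeq2 1.42.0 on the listed genes. Tested on simulated data with 200 changed genes, edgeR recovered 199 or 200 in each of the 6 comparisons with 0 false calls. The interaction recovered 200 with 5 false. Recovery at the sizes and spread of the members' own calls was not tested. On the real counts with the strict adjustment, edgeR called 76 of 750 listed genes in SeNP over CK and 287 of 1119 in Cd over CK. Without CK 2 it called 744 and 1059 in the same order. As unlisted genes have no p, an adjustment over the recovered number tested is conservative. Refits were therefore also judged at the highest raw p the authors called, 0.00731 to 0.0128, an alternative chosen after seeing the data.

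No label pairs the libraries. Same-numbered libraries had deviations with correlations of 0.304, 0.474 and 0.101 in Cd against CK and 0.166, 0.318 and 0.149 in SeNP against CK. In SeNP against Cd they were -0.002, 0.061 and -0.102, and libraries of different number were not compared. These values do not settle whether the numbers are pairs, so the replicate block served as an alternative fit only. At the authors' p limit the block ended no member call in Cd over CK or SeNP over CK. With the adjustment over the genes tested it ended bHLH61 in Cd over CK (edgeR adjusted p = 0.054), and SPEECHLESS (0.092), MYB17 (0.14) and MYB3R-5 (0.14) in SeNP over CK.

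Members and lists were chosen with earlier results of these data known. The 14 lists are words matched at word starts, a limit set after "LUX" was seen to match efflux carriers. Values of every library are given for members called in at least 3 tables, for the 3 largest changes per family, table and direction whose higher group averaged 1 FPKM or more, and for those with a passing interaction; the others are given by range. Other genes named were chosen after their values were seen. Counts limit precision most for genes under 1 FPKM.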

Additional observations from a re-analysis of the deposited data

Results flagged for a closer look

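For 7 members the cadmium response with nanoparticles (CdSeNP over SeNP) differed from that without them (Cd over CK) in edgeR's interaction test over 575 genes selected by being called, of which 73.7% passed. The difference of the log2 changes was 3.31 for bHLH18 (LOC111906393), 2.45 for MYB14 (LOC111918331), 2.38 for MYB17, 1.75 for MYB44, 1.06 for bHLH87, 0.99 for MYB8 and 0.91 for RADIALIS-like 3. All 7 were positive, where 45.2% of the 575 genes passed with a positive and 28.5% with a negative value. MYB8 missed the limit when CK 1, Cd 1, Cd 2 or CdSeNP 3 was left out.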

How the results depend on the processing

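No member changed direction under any alternative. The comparisons are given here as CdSeNP over SeNP, CdSeNP over Cd, SeNP over Cd, CdSeNP over CK, SeNP over CK and Cd over CK. Where changes of 2 or more on the log2 scale were required, the MYB counts were 1, 0, 0, 1, 1 and 1 and the bHLH counts 1, 0, 1, 0, 1 and 0 in that order. At an adjusted p under 0.01 the bHLH count in SeNP over CK was 1. With the adjustment over the recovered number of genes tested, edgeR gave MYB counts of 3 in SeNP over Cd, 2 in SeNP over CK and 3 in Cd over CK, and bHLH counts of 0 in CdSeNP over Cd, 2 in CdSeNP over CK, 0 in SeNP over CK and 1 in Cd over CK. DESeq2 gave 4 MYB members in SeNP over CK, and 1 bHLH member in CdSeNP over Cd and 3 in Cd over CK. Library totals gave 0 MYB members in SeNP over CK (5 at the authors' p limit) and 3 in Cd over CK, and bHLH counts of 0 in CdSeNP over Cd, 1 in CdSeNP over CK, 0 in SeNP over CK and 1 in Cd over CK. The replicate block gave MYB counts of 1 in CdSeNP over Cd, 3 in SeNP over Cd and 0 in CdSeNP over CK, and bHLH counts of 0 in CdSeNP over Cd and 1 in CdSeNP over CK. Whether the replicate numbers pair the libraries is not known. At the authors' p limit the block left 2 bHLH members in CdSeNP over Cd and 3 in CdSeNP over CK, as HEC1 (-1.16, edgeR unadjusted p = 0.019) and bHLH18 (LOC111906393; 1.82, 0.0075) ended. Leaving out single libraries gave MYB counts at the authors' p limit of 6 to 6, 2 to 2, 3 to 6, 2 to 3, 4 to 8 and 3 to 5, and bHLH counts of 3 to 4, 1 to 3, 3 to 4, 2 to 4, 0 to 3 and 2 to 5. Over the recovered number tested they were 6 to 6, 2 to 2, 2 to 4, 0 to 2, 0 to 8 and 0 to 5 for MYB, and 3 to 4, 0 to 1, 3 to 3, 0 to 4, 0 to 3 and 0 to 5 for bHLH. The members past the interaction test numbered 6 to 8 without single libraries and 7 under DESeq2, library totals, a minimum of 10 counts and the block. The recovered adjustment treats unlisted genes as never called, which lowers these counts by construction. Over all listed genes, edgeR called 76 in SeNP over CK against 649 at the authors' p limit, and 287 in Cd over CK against 972. These counts also varied with the fit and the libraries used. Under the same recovered adjustment, edgeR without CK 2 called 744 in SeNP over CK and 1059 in Cd over CK. Without CK 1 it called 70 and 162, without CK 3 28 and 86, and DESeq2 on all libraries called 473 and 801. Other causes were not tested. Low depth limits members under 1 FPKM most.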
